A study of Mus musculus with 23 samples.

Results

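The genes described here encode 7 cyclic nucleotide phosphodiesterases (Pde3b, Pde4a, Pde4b, Pde4d, Pde7a, Pde8a and Pde10a), the adenosine receptors Adora2a and Adora2b, and Crem, a transcription factor gene of the cAMP pathway. They were chosen by name, as the targets through which pentoxifylline (PTX) is known to act and a gene that reports on that pathway, and they are 10 of the 56748 genes counted in 23 melanoma tumors. The tumors grew from B16-F1 mouse melanoma cells implanted under the skin of DBA/2J mice aged 6 to 8 weeks. The 4 groups treated by the intraperitoneal (IP) route held 2 tumors each: CONTROL_IP received saline, PTX_IP received PTX at 60 mg/kg, NCTD_IP received norcantharidin (NCTD) at 3 mg/kg, and MIX_IP received both drugs at these doses. By the intratumoral (IT) route, CONTROL_IT received DMSO, and PTX_IT, NCTD_IT and MIX_IT received the same doses, with 4 tumors per group except PTX_IT, which held 3. The labels' batch is the route, and the control vehicle differs between the routes, so that route, vehicle and batch cannot be told apart. B16-F1 cells come from another inbred mouse strain than the hosts, and each tumor was sequenced whole, so that a level sums melanoma and host cells. The labels do not state that each tumor came from a mouse of its own, and the p-values below measure the spread between these tumors.

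Cyclic AMP is made by adenylyl cyclases, which the adenosine receptors encoded by Adora2a and Adora2b stimulate through a G protein, and it is broken down by phosphodiesterases. PTX is a methylxanthine, a class of compounds that inhibit many phosphodiesterases and block adenosine receptors, while NCTD is a demethylated form of cantharidin, an inhibitor of protein phosphatases. When cAMP rises, protein kinase A phosphorylates factors of the CREB family, which bind cAMP response elements in promoters and raise the transcription of genes that include some phosphodiesterases and the short repressor form of Crem. In melanocytes the same pathway, driven by the receptor Mc1r, controls Mitf and pigment synthesis. The counts measure RNA and not enzyme activity or drug binding, and they come from the 3′ ends of transcripts, so that the long and short forms of Crem and of the Pde4 genes are counted together.

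Promoters were examined for the letters that CREB factors bind, TGACGTCA for the full element and TGACG for its first part, each read on both strands. RefSeq promoter windows of 300 bases (250 before the start site and 50 after it, build GRCm38.p6, which is older than the GRCm39 build of the counts) were at hand for 6 of the 10 genes. Crem, Pde3b, Pde7a and Adora2a had none and were not examined. The other 6 genes had 12 windows. The full element was in 0 of these windows, against 1.79% of all 32851 windows of the same length, and the shorter letters, which also lie within the full element, were in 3 windows, against 20.8% of all windows. The 120 bases before the start site in these 3 windows are shown because they hold the only matches in the 12 windows. Each match is in capitals and, where it lies on the other strand, is given as its reverse complement CGTCA.
Pde4a, second window (chr9:21183981-21184100, + strand): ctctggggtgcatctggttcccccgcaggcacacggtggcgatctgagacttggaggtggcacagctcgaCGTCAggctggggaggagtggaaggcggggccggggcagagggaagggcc
Pde4b, first window (chr4:102421435-102421554, + strand): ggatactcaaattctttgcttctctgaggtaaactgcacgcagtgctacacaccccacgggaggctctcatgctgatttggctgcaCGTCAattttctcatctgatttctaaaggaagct
Pde8a (chr7:81213145-81213264, + strand): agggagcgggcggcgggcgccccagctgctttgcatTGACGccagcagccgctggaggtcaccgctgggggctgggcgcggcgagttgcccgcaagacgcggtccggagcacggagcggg
The first base of the match lay at position -50 from the start site in the Pde4a window, at -34 in the Pde4b window and at -84 in the Pde8a window. A match of these letters is a description of the sequence and does not show that a factor binds there.

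The depth of the tumors, as the total of their gene counts, ran from 2861578 to 6702374 (median 4013068). Levels are counts scaled to the library's size and by TMM over the 23 tumors (CPM), and a count of 3, taken as the floor of detection, corresponds to between 0.449 and 1.04 CPM. The floor covers counting error only, since amplified reads are not independent molecules. Of the 10 genes, 9 passed edgeR's filter on low counts among the IP tumors and among all 23, and 8 passed it among the IT tumors (all but Adora2a and Adora2b). The melanoma markers Mlana, Pmel, Tyr, Dct, Tyrp1, Sox10, Mitf and Gpnmb were present in every tumor, with a summed level between 16900 and 40410 CPM. Xist, the noncoding RNA of the inactive X chromosome in female cells, was at 5.19 to 13.6 CPM in NCTD_IT, 1.28 to 11.6 CPM in PTX_IT, 0 to 0.566 CPM in CONTROL_IT and 0 in MIX_IT, and among the IP tumors only CONTROL_IP replicate 2 had any (8.26 CPM).

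Between genes, levels were compared per length, as median CPM divided by the length of the gene model in kb. On this scale the order was Pde7a at 8.23 CPM per kb, Crem at 7.99, Pde8a at 6.57, Pde4b at 4.62, Pde4a at 1.85, Pde4d at 1.15, Adora2b at 0.759, Pde10a at 0.699 and Pde3b at 0.154, with Adora2a at 0. Because libraries of 3′ ends do not gain counts with length, this scale lowers long genes such as Pde10a (12849 bases) and Pde4d (12006 bases) relative to short ones such as Adora2b (1845 bases). By median CPM, not divided by length, the order differed: Pde7a at 63.8, Pde4b at 48.8, Crem at 47.1, Pde8a at 26.6, Pde4a at 14.1, Pde4d at 13.8, Pde10a at 8.98, Pde3b and Adora2b at 1.4, and Adora2a at 0. Of 24 phosphodiesterase genes, 16 passed the filter over the 23 tumors and 1, Pde2a, had no count in any tumor. Per kb, Pde7a, Pde8a and Pde4b ranked just below Pde11a, a dual cAMP and cGMP phosphodiesterase at 50.3 CPM per kb, and Pde6d, at 26.8 CPM per kb. Pde6d encodes a prenyl-binding protein and no enzyme. By median CPM, Pde11a was at 262 and Pde6d at 58.3, which is below Pde7a. The Pde11a gene contains other annotated transcripts on the opposite strand, and the counts cannot be assigned to a strand because the strand setting of the counting was not stated.

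**Figure D1:**
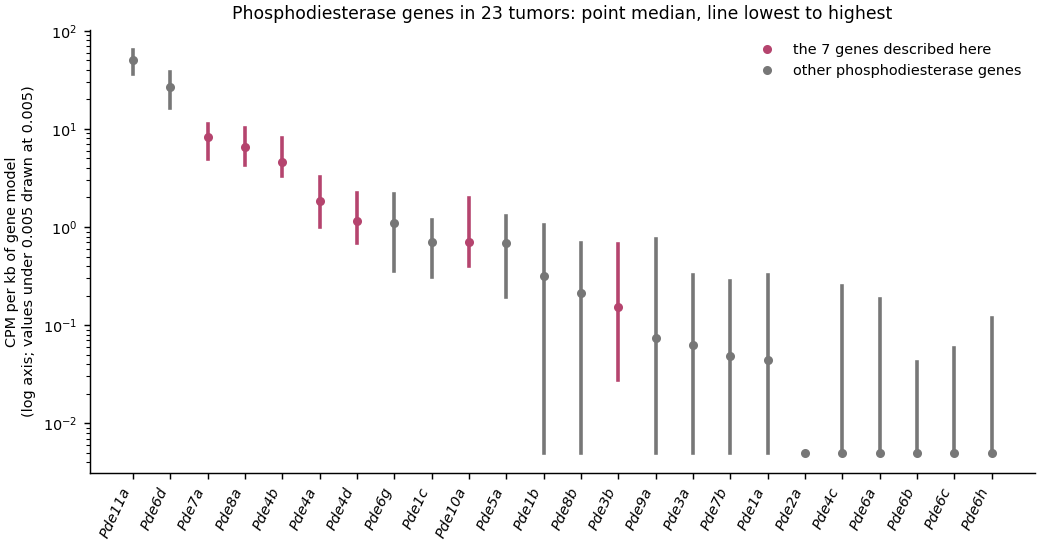
Levels of 24 phosphodiesterase genes, in CPM per kb of gene model on a log axis, with the median (point) and the lowest to highest value (line) over 23 tumors, and values under 0.005 drawn at 0.005. Of the 7 genes in color, Pde7a, Pde8a and Pde4b lie highest, below Pde11a and Pde6d, and Pde3b lies lowest.

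Positions of genes are those of the count table, on GRCm39. Adora2a (chromosome 10, 75152711 to 75170618, + strand), the high-affinity receptor that restrains T cells, had 2 counts in all, 1 in MIX_IP replicate 8 and 1 in MIX_IT replicate 22. The other 21 tumors had 0 counts, which allows up to 3 counts in each, and no comparison of Adora2a was possible. Adora2b (chromosome 11, 62139810 to 62157279, + strand), the low-affinity receptor, had between 0 and 27 counts per tumor and was at or over the floor in 20 of 23 tumors. Its mean level was 2.36 ± 1.97 CPM (SD, n = 2) in CONTROL_IP, 1.43 ± 0.755 (n = 2) in PTX_IP, 2.73 ± 1.88 (n = 2) in NCTD_IP and 3.66 ± 0.379 (n = 2) in MIX_IP. In the IT groups it was 1.86 ± 0.595 (n = 4) in CONTROL_IT, 0.816 ± 1.00 (n = 3) in PTX_IT, 1.81 ± 1.98 (n = 4) in NCTD_IT and 1.40 ± 0.446 (n = 4) in MIX_IT. Ordered by mean, every group overlapped its neighbours in the order. Neighbours in such an order are close by construction, so their overlap says nothing of groups farther apart in it. The share of all genes with such overlap was not computed, here or for the genes below. Of the other adenosine receptor genes, Adora1 had 3 counts in all and Adora3 had 56, and neither passed the filter.

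Pde3b (chromosome 7, 114014516 to 114138486, + strand), a cAMP phosphodiesterase inhibited by cGMP and known for its part in the action of insulin, was also sparse, with 1 to 23 counts per tumor. Its mean was lowest in PTX_IT at 1.22 ± 0.881 CPM (SD, n = 3) and highest in NCTD_IP at 2.73 ± 1.88 CPM (n = 2). The other means were 2.53 ± 1.1 (n = 2) in CONTROL_IP, 1.79 ± 1.91 (n = 2) in PTX_IP, 1.35 ± 0.0693 (n = 2) in MIX_IP, 1.37 ± 1.12 (n = 4) in CONTROL_IT, 2.71 ± 2.54 (n = 4) in NCTD_IT and 1.65 ± 1.48 (n = 4) in MIX_IT. All 7 neighbouring pairs in the order of means overlapped.

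The Pde4 genes encode phosphodiesterases that hydrolyze cAMP alone and are the main ones of leukocytes. Pde4b (chromosome 4, 101944740 to 102464456, + strand) ranged from 34.9 to 85.8 CPM over the 23 tumors. Its means were 42.6 ± 8.99 CPM (SD, n = 2) in CONTROL_IP, 41.4 ± 9.15 (n = 2) in PTX_IP, 51.1 ± 0.622 (n = 2) in NCTD_IP, 49.5 ± 4.16 (n = 2) in MIX_IP, 52.2 ± 2.76 (n = 4) in CONTROL_IT, 52.8 ± 11.6 (n = 3) in PTX_IT, 62.6 ± 19 (n = 4) in NCTD_IT and 42.8 ± 4.47 (n = 4) in MIX_IT. When the groups were ordered by mean, neighbours overlapped in all 7 pairs. Pde4a (chromosome 9, 21077010 to 21124544, + strand) ranged from 7.64 to 24.9 CPM, with its lowest mean in CONTROL_IT at 12.0 ± 2.62 CPM (n = 4) and its highest in NCTD_IT at 21.2 ± 2.59 CPM (n = 4). Between these lay NCTD_IP at 12.6 ± 3.51 (n = 2), MIX_IP at 12.7 ± 0.880 (n = 2), MIX_IT at 15.6 ± 4.66 (n = 4), PTX_IP at 15.7 ± 11.4 (n = 2), CONTROL_IP at 15.9 ± 3.59 (n = 2) and PTX_IT at 18 ± 6.05 (n = 3). Pde4d (chromosome 13, 108586482 to 110089995, + strand), known as a cAMP-induced brake in melanocytes, ranged from 8.33 to 26.7 CPM. Its means were 11.1 ± 0.629 (n = 2) in CONTROL_IP, 12.2 ± 2.17 (n = 2) in PTX_IP, 21.1 ± 7.28 (n = 2) in NCTD_IP, 12.7 ± 1.42 (n = 2) in MIX_IP, 12.5 ± 3.43 (n = 4) in CONTROL_IT, 13.6 ± 4.27 (n = 3) in PTX_IT, 18.2 ± 6.37 (n = 4) in NCTD_IT and 14.4 ± 5.16 (n = 4) in MIX_IT. For both genes, too, each group overlapped its neighbours in the order of means, although Pde4a did not overlap between CONTROL_IT and NCTD_IT.

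Pde7a (chromosome 3, 19277272 to 19365486, - strand), a cAMP-specific enzyme of T cells and other tissues, varied least among these genes, between 37.8 and 87.8 CPM, with a coefficient of variation of 17.4% over the 23 tumors. Its means ran from 54.5 ± 7.28 CPM (SD, n = 4) in CONTROL_IT to 75.2 ± 12.1 (n = 3) in PTX_IT, with 56.5 ± 7.49 (n = 2) in NCTD_IP, 56.8 ± 13.6 (n = 4) in MIX_IT, 58.6 ± 12.1 (n = 2) in CONTROL_IP, 61.5 ± 10.0 (n = 2) in PTX_IP, 66.2 ± 3.58 (n = 2) in MIX_IP and 69.1 ± 5.39 (n = 4) in NCTD_IT between them. Pde10a (chromosome 17, 8744204 to 9205480, + strand), which hydrolyzes cAMP and cGMP and is best known from the striatum, had its lowest mean in CONTROL_IT at 6.94 ± 1.5 CPM (n = 4) and its highest in NCTD_IT at 16.3 ± 6.22 CPM (n = 4), a ratio of 2.35. Its other means were 8.45 ± 0.685 (n = 2) in CONTROL_IP, 8.62 ± 1.09 (n = 2) in MIX_IP, 9.57 ± 4.03 (n = 2) in NCTD_IP, 10.0 ± 0.250 (n = 2) in PTX_IP, 12.0 ± 3.42 (n = 3) in PTX_IT and 12.2 ± 8.95 (n = 4) in MIX_IT. All neighbours in the order of means overlapped for both genes, although Pde10a did not overlap between CONTROL_IT and NCTD_IT.

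Pde8a (chromosome 7, 80863344 to 80984281, + strand) encodes a high-affinity cAMP phosphodiesterase that, unlike most of the family, is insensitive to the methylxanthine IBMX. Its neighbouring groups, ordered by mean, did not all overlap. How many of all genes show this was not computed, so it cannot be read as a trait of Pde8a. In CPM, CONTROL_IP was at 33.0 and 26.6, PTX_IP at 17.5 and 17.3, NCTD_IP at 22.1 and 27.5, and MIX_IP at 31.1 and 26.9. The 4 CONTROL_IT tumors were at 20.6, 20.8, 21.7 and 22.1 CPM, those of PTX_IT at 31.5, 29.3 and 22.6 CPM, those of NCTD_IT at 32.0, 35.2, 26.3 and 41.3 CPM, and those of MIX_IT at 39.6, 22, 41.8 and 20.7 CPM. Of the 7 neighbouring pairs in the order of means, 5 overlapped, while PTX_IP (mean 17.4 ± 0.186, SD, n = 2) lay below CONTROL_IT (21.3 ± 0.695, n = 4) and CONTROL_IT lay below NCTD_IP (24.8 ± 3.77, n = 2). The other means were 29.8 ± 4.54 (n = 2) in CONTROL_IP, 29.0 ± 2.91 (n = 2) in MIX_IP, 27.8 ± 4.64 (n = 3) in PTX_IT, 33.7 ± 6.29 (n = 4) in NCTD_IT and 31.0 ± 11.2 (n = 4) in MIX_IT. The MIX_IT tumors fell into a pair near 40 CPM and a pair at the level of CONTROL_IT.

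Crem (chromosome 18, - strand) ranged from 20.4 to 91.5 CPM over the 23 tumors, while the group means differed by a ratio of only 1.37. The means were 49.9 ± 4.66 CPM (SD, n = 2) in CONTROL_IP, 48.3 ± 5.86 (n = 2) in PTX_IP, 50.7 ± 5.22 (n = 2) in NCTD_IP, 46.3 ± 0.876 (n = 2) in MIX_IP, 42.6 ± 12.7 (n = 4) in CONTROL_IT, 54.5 ± 16.9 (n = 3) in PTX_IT, 55.8 ± 24.6 (n = 4) in NCTD_IT and 40.7 ± 16.8 (n = 4) in MIX_IT. All neighbouring groups overlapped, and the lowest and the highest tumor, MIX_IT replicate 23 and NCTD_IT replicate 20, were both IT tumors.

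**Figure D2:**
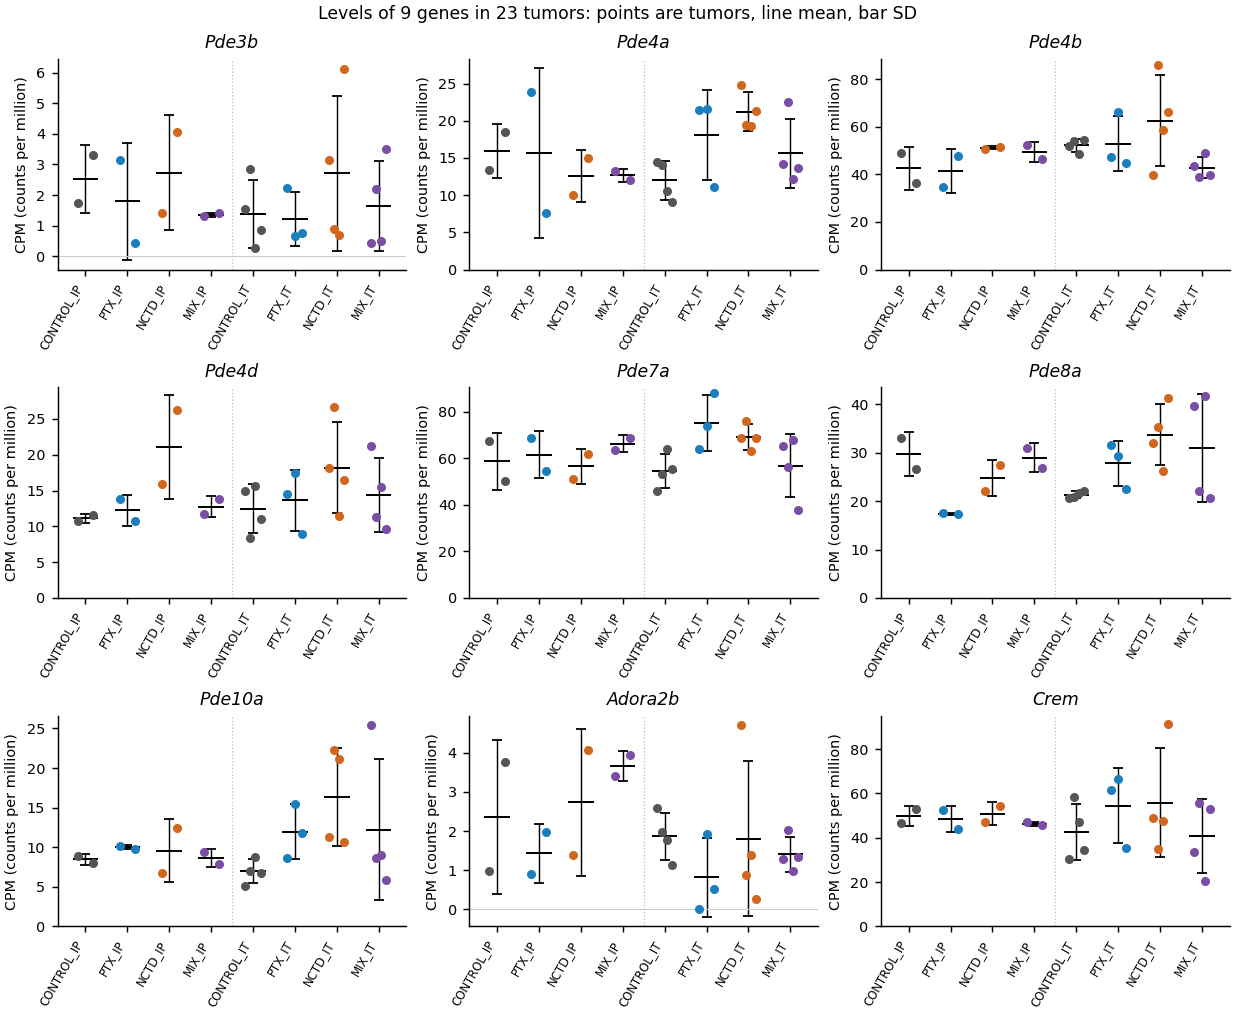
Levels in CPM of 9 of the 10 genes in each of 23 tumors (points), by group and route, with the group mean (line) and SD (bar). For some genes, treated groups stand apart from their control. Pde8a is lowest in the 2 PTX_IP tumors and tightly grouped in CONTROL_IT, and Adora2a is left out because it had 2 counts in all.

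To ask whether the RNA of its targets followed PTX, the tumors given PTX (alone or in MIX) were compared with those not given it, within each route, by edgeR's quasi-likelihood test with Benjamini-Hochberg adjustment over all genes tested. None of the 9 genes tested in IP (4 tumors given PTX, 4 not) or of the 8 tested in IT (7 given, 8 not) had an adjusted p below 0.05 or an unadjusted p below 0.05. The same held for all 12424 genes tested in IP at the adjusted threshold (0%), with 3.19% at an unadjusted p below 0.05, and for all 12480 in IT (0% and 2.40%). DESeq2 on the same tumors called 2 genes in IP and 1 in IT, none of them among these, and gave 270 and 449 genes an unadjusted p below 0.05. In no case did the groups stand apart: 0 of 9 genes in IP and 0 of 8 in IT had all tumors given PTX on the same side of those not given it, against 2.17% and 0.016% of all genes.

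The intervals bound the mean of the effects of PTX alone and of PTX added to NCTD, and not the effect of PTX alone. In IP, the log2 fold change (given over not given, 95% confidence interval) was -0.27 (-0.66 to 0.11) for Pde8a, -0.04 (-0.41 to 0.33) for Pde4b, 0.15 (-0.19 to 0.50) for Pde7a and -0.09 (-0.40 to 0.23) for Crem. In IT it was 0.13 (-0.25 to 0.50) for Pde8a, -0.27 (-0.59 to 0.05) for Pde4b, 0.09 (-0.21 to 0.38) for Pde7a and -0.05 (-0.58 to 0.47) for Crem. For these better counted genes a doubling or halving, which is 1 on the log2 scale, lay outside the interval of this mean by both routes. Pde4a was at 0.01 (-0.74 to 0.75) in IP and 0.06 (-0.36 to 0.49) in IT, Pde4d at -0.29 (-0.81 to 0.23) and -0.11 (-0.63 to 0.40), and Pde10a at 0.05 (-0.56 to 0.66) and 0.18 (-0.47 to 0.83). The intervals of these 3 genes also stayed within 1 of 0. The sparse Pde3b, at -0.73 (-2.21 to 0.76) in IP and -0.44 (-1.85 to 0.98) in IT, and Adora2b, at -0.18 (-1.5 to 1.14) in IP, were too imprecise for such a bound.

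**Figure D3:**
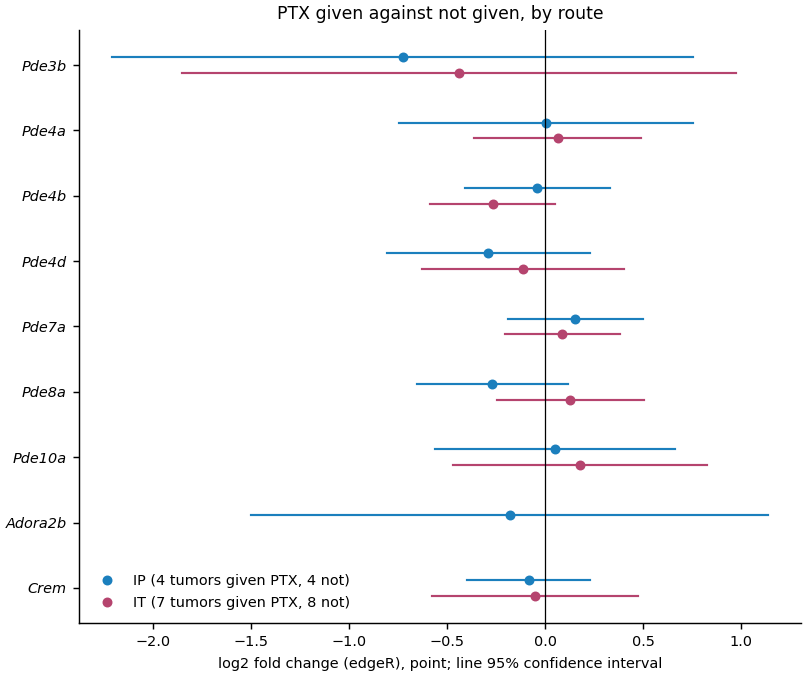
Log2 fold change of each gene in tumors given PTX against tumors not given it (point, with its 95% confidence interval as a line), for the IP and the IT route. Every interval crosses 0, and those of Pde3b and Adora2b are the widest.

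For each treatment alone, PTX_IP differed from CONTROL_IP at an adjusted p below 0.05 in 0 of 9 genes (0% of all genes tested, edgeR) and at an unadjusted p below 0.05 in 1 (5.29% of all genes). This gene was Pde8a, whose PTX_IP tumors both lay below both CONTROL_IP tumors, by -0.77 on the log2 scale (standard error 0.25, adjusted p = 0.9154 by edgeR). DESeq2 gave no gene of the 9 an unadjusted p below 0.05 there. Groups of 2 against 2 did not overlap in 2 of the 9 genes, Pde8a (lower) and Pde10a (higher), against 31.8% of all genes. In IT, 0 of 8 genes had an adjusted p below 0.05 (0% of all genes) and 1 an unadjusted p below 0.05 (6.12% of all genes) for PTX_IT against CONTROL_IT. That gene was Pde7a, at 63.8, 73.8 and 87.8 CPM in PTX_IT and 46.1, 53.0, 63.8 and 55.2 CPM in CONTROL_IT, a difference of 0.46 on the log2 scale (standard error 0.20, adjusted p = 0.805 by edgeR). The lowest PTX_IT tumor (63.82 CPM) exceeded the highest control (63.75 CPM) only barely. Pde7a and Pde8a were the 2 of 8 genes whose groups did not overlap, both higher in PTX_IT, against 7.96% of all genes.

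Pde8a thus lay below its control after PTX by the IP route and above it by the IT route, where its log2 fold change was 0.38 (95% confidence interval -0.17 to 0.94). The difference between the routes, a comparison chosen after these values were seen, was 1.16 (standard error 0.40, 95% confidence interval 0.34 to 1.98, adjusted p = 0.9116 by edgeR in all 23 tumors). In that comparison 0 of 9 genes (0% of all genes) had an adjusted p below 0.05 and 1 of 9 (5.10%) an unadjusted p below 0.05. The controls themselves stood apart, with Pde8a at 29.8 CPM in CONTROL_IP and 21.3 CPM in CONTROL_IT. When MIX was added to each side, as tumors given PTX against not given, the IT effect minus the IP effect was 0.40 (-0.17 to 0.97) for Pde8a, and 0 of 9 genes passed at the adjusted (0% of all genes) or the unadjusted threshold (2.53%).

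Of the 6 treatments set against their control, NCTD by the IT route gave these genes the largest median log2 fold change, 0.60, with Pde4a, Pde8a and Pde10a each above the control in all 4 tumors. The adjusted p was below 0.05 in 0 of the 8 genes tested, against 2.07% of all genes, and the unadjusted p in 3 of 8, against 21.3% of all genes (edgeR). Pde4a was at 24.9, 19.4, 19.4 and 21.3 CPM in NCTD_IT and at 14.4, 14.0, 10.6 and 9.05 CPM in CONTROL_IT, without overlap, which is 0.82 on the log2 scale (standard error 0.28, adjusted p = 0.1014 by edgeR). Pde10a was at 11.3, 22.3, 21.1 and 10.7 CPM in NCTD_IT and at 5.15, 7.01, 8.82 and 6.79 CPM in CONTROL_IT, a log2 difference of 1.22 (standard error 0.43, adjusted p = 0.114 by edgeR). Here, too, each treated tumor lay above each control, with the treated tumors in a higher and a lower pair. For Pde8a, with the values given above, it was 0.66 (standard error 0.24, adjusted p = 0.132 by edgeR) and did not overlap either. The 3 genes without overlap among 8 compare with 16.8% of all genes. All of the 8 tested genes had a positive log2 fold change, while 52.0% of all genes did, with a median of 0.03. DESeq2 on the 2 groups alone called Pde4a (adjusted p = 0.04744) and Pde10a (adjusted p = 0.02204), which is 2 of the 9 with an adjusted p, beside 1380 of 13015 genes in all (10.6%). With edgeR on the 2 groups alone, these and Pde8a were called (adjusted p between 0.0403 and 0.04812), 3 of the 7 tested, beside 8.98% of all genes in that fit. Without a filter on low counts edgeR called Pde10a, 1 of 10, beside 4.43% of all genes.

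**Figure D4:**
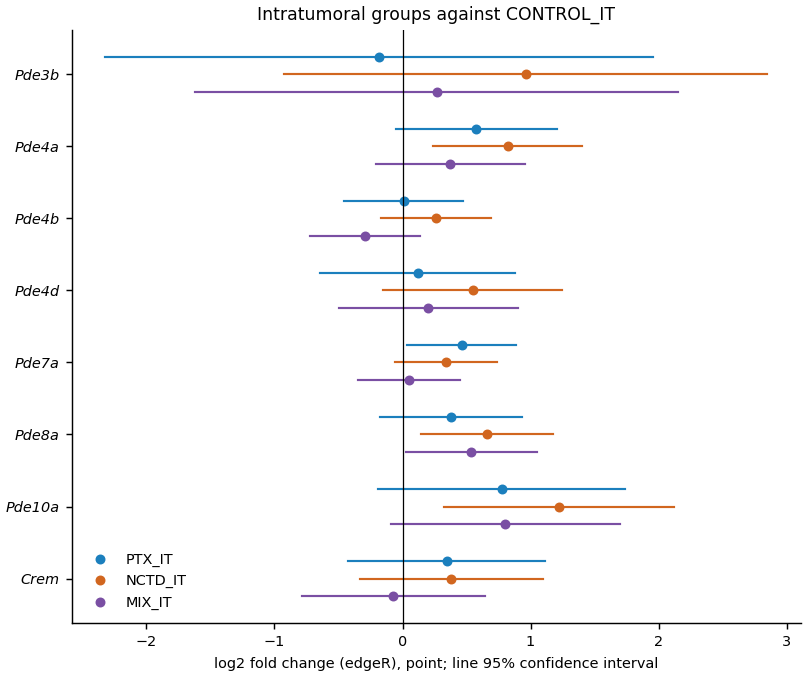
Log2 fold change against CONTROL_IT of the 8 genes tested by the IT route, for PTX_IT, NCTD_IT and MIX_IT (points, with 95% confidence intervals as lines). The intervals of Pde4a, Pde8a and Pde10a lie above 0 for NCTD_IT, and the 3 comparisons share the 4 control tumors.

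Other RNAs moved with this group. Endothelial markers summed to 76.8 to 146 CPM in NCTD_IT and 66.3 to 218 in MIX_IT, against 39.9 to 62.0 in CONTROL_IT and 55.2 to 80.6 in PTX_IT, and of the 6 markers (Pecam1, Cdh5, Kdr, Tek, Emcn and Vwf) 5 were tested and 1, Emcn, was higher in NCTD_IT (log2 fold change 1.29, adjusted p = 0.03942 by edgeR). Tek had no count in some tumors of every IT group. Macrophage markers summed to 205 to 665 CPM in NCTD_IT and 65.2 to 378 in CONTROL_IT, with 0 of 7 called and none at 0 in any IT tumor, and those of T and NK cells to 13.1 to 157 CPM and 0.773 to 51.9 CPM, with 0 of 7 tested called and Cd3e at 0 in 1 NCTD_IT tumor. Neutrophil markers summed to 17.9 to 1093 CPM in NCTD_IT and 2.26 to 8.76 CPM in CONTROL_IT, with 0 of 3 tested called, and Ly6g was at 0 in all 4 NCTD_IT tumors. Replicate 18 alone was at 1093 CPM, and the other NCTD_IT tumors were at 27.0, 46.3 and 17.9 CPM. Fibroblast markers summed to 345 to 1487 CPM in NCTD_IT and 432 to 7582 in MIX_IT, against 87.8 to 312 in CONTROL_IT and 230 to 676 in PTX_IT, without overlap between NCTD_IT and CONTROL_IT, with 0 of 5 tested called and Lum at 0 in 1 NCTD_IT tumor. Adipocyte markers summed to 139 to 295 CPM in NCTD_IT and 71.6 to 86.2 CPM in CONTROL_IT, also without overlap. Of these, 0 of 2 tested were called (Fabp4 and Lipe), and both Cidec and Lep were at 0 in all 4 NCTD_IT tumors. Nearly all of this sum was Fabp4, at 32.9 to 520 CPM over all tumors. Lipe reached at most 3.73 CPM, and Adipoq, Plin1, Cidec and Lep had a median of 0, so the sum describes a single gene. The ranges of the B cell, skeletal muscle, keratinocyte and erythroid lists overlapped between the 2 groups. The melanoma markers summed to 20900 to 29050 CPM in NCTD_IT and 28880 to 34120 CPM in CONTROL_IT, with 1 of 8, Mitf, lower. The part of these cell types in the levels of the phosphodiesterases was not tested, and in whole tumors fewer cells of a type cannot be told apart from less RNA per cell. Xist was also present in each NCTD_IT tumor. With its log2 CPM as a covariate, which separates the 2 groups completely, the log2 fold change was 0.17 for Pde4a, -0.02 for Pde8a and 1.2 for Pde10a, and the adjusted p of each exceeded the threshold.

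In MIX_IT the adjusted p was below 0.05 in 0 of 8 genes (0.0160% of all genes) and the unadjusted p in 1 of 8 (13.1% of all genes). That gene was Pde8a, at 0.54 on the log2 scale (standard error 0.24, adjusted p = 0.3611 by edgeR), although its MIX_IT tumors overlapped the controls. No gene of the 8 stood apart from CONTROL_IT, against 9.91% of all genes. Pde10a in MIX_IT was at 25.5, 8.59, 8.98 and 5.83 CPM, a group in which a single tumor, replicate 21, stood above the others.

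Across the 4 IT groups, tumors given NCTD were compared with those not given it. In that comparison 0 of 8 genes passed at the adjusted threshold (0.0240% of all genes) and 1 at the unadjusted (14.4%), which was again Pde8a at 0.41 on the log2 scale (standard error 0.18, adjusted p = 0.3122 by edgeR). MIX_IT was also compared with the sum of the effects of its drugs. The departure was negative in all 8 tested genes, with a median log2 value of -0.65, while the median of all genes was -0.01 and 49.2% of them were positive. It passed the adjusted threshold in 0 of 8 genes (0.0240% of all genes) and the unadjusted in 2 of 8 (10.9%). These were Pde4a at -1.02 (standard error 0.40, adjusted p = 0.4217 by edgeR) and Pde7a at -0.75 (standard error 0.28, adjusted p = 0.4116 by edgeR), whose levels in MIX_IT lay nearer to CONTROL_IT than those under either drug did. This comparison reuses the tumors of the pairwise ones.

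In the IP groups NCTD_IP gave 0 of 9 genes at the adjusted threshold (0% of all genes) and 1 at the unadjusted (3.58%). Pde4d was at 16 and 26.3 CPM in NCTD_IP and at 10.7 and 11.6 CPM in CONTROL_IP, a log2 difference of 0.93 (standard error 0.33, adjusted p = 0.9995 by edgeR). Pde4b (higher) and Pde4d were the 2 of 9 genes whose groups did not overlap, against 34.3% of all genes. MIX_IP gave 0 of 9 genes at either threshold (0% and 2.86% of all genes), with 3 of 9 groups not overlapping (Pde3b and Pde4a lower, Pde4d higher) against 35.9% of all genes. Tumors given NCTD by the IP route against those not given it also gave 0 of 9 at either threshold (0% and 2.77% of all genes). Between the routes, averaged over the treatments, 0 of 9 genes passed at either threshold, against 0.799% and 14.2% of all genes. The widest log2 difference, IT minus IP, was that of Adora2b, -0.76 (95% confidence interval -1.78 to 0.26), and the others lay between -0.28 for Pde3b and 0.31 for Pde10a.

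The rest of the pathway was counted from 8 lists that together hold the cyclases, the effectors of cAMP, the CREB factors, the genes that cAMP induces, the melanocyte pathway, the enzymes and transporters of adenosine, and the receptor and phosphodiesterase genes, the 10 genes included. Among tumors given PTX against not given, 0 of 62 tested genes in IP and 0 of 61 in IT had an adjusted p below 0.05, as did 0% of all genes in either route. In IP, the higher and the lower gene of smallest unadjusted p were Crtc2, a coactivator of CREB, at 0.85 (standard error 0.31, adjusted p = 0.998) and Pkia, an inhibitor of protein kinase A, at -0.32 (standard error 0.15, adjusted p = 0.998). In IT they were Npr2, a receptor guanylyl cyclase, at 0.94 (standard error 0.43, adjusted p = 0.9995) and Mitf at -0.41 (standard error 0.13, adjusted p = 0.9995). Of the genes that cAMP induces, 5 of 15 tested lay above 0 in IP, beside 50.4% of all genes. In IT 2 of 16 did, beside 52.7% of all genes. Their medians were -0.09 and -0.12, beside medians of all genes of 0.00 and 0.01. For PTX alone against its control, 7 of 15 lay above 0 in IP (median -0.04) and 12 of 16 in IT (median 0.35). Of all genes, 51.2% and 51.6% did so. The departure of MIX_IT from the sum of its drugs had a median of -0.88 in this list.

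For single treatments, 3 of 61 pathway genes passed in NCTD_IT, beside 2.07% of all genes, of which 2 rose and 1 fell. Mitf, the melanocyte transcription factor, fell to 451 ± 107 CPM (SD, n = 4) from 822 ± 143 (n = 4), a log2 fold change of -0.86 (adjusted p = 0.02902 by edgeR). The early response gene Egr1 rose to 25.2 ± 9.94 CPM from 6.49 ± 3.26 (log2 fold change 1.94, adjusted p = 0.04565) and Rgs2, a regulator of G protein signalling, to 51.1 ± 14.6 CPM from 18.2 ± 7.36 (1.48, adjusted p = 0.04565). In MIX_IT, Mitf was at 353 ± 22.9 CPM (n = 4), a log2 fold change of -1.22 (adjusted p = 0.0333), and was the only call among the 61, beside 0.0160% of all genes. Mitf also passed for NCTD given against not given in IT, at -0.81 (adjusted p = 0.0428), beside 0.0240% of all genes. Between the routes, 2 of 66 genes passed, beside 0.799% of all genes, with Rapgef4, a cAMP-activated exchange factor, lower in IT (-0.44, adjusted p = 0.02254) and Mc1r higher (0.40, adjusted p = 0.04641). None of the 10 genes was among these calls.

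Where no pathway gene passed, 1 higher and 1 lower gene are named, each that of smallest unadjusted p in its direction, and not each of these p values was below 0.05. They were Rapgef3 (0.43) and Pde8a in PTX_IP, Fos (1.26) and Pde6d (-0.63) in NCTD_IP, Fos (0.83) and Pde6d (-0.42) in MIX_IP, Pde1c (0.93) and Mitf (-0.46) in PTX_IT, and Pde6d (0.62) and Dusp1 (-2.23) in the departure of MIX_IT, all as log2 values. Fos (0.71) and Pde6d (-0.31) were again those of NCTD given against not given in IP, Npr2 (1.29) and Prkar2a (-0.53) those of the PTX effect between routes, and Pde8a and Prkaca (-1.47) those of the comparison added after the values were seen. In that last comparison the unadjusted p was below 0.05 for 3 of 66 genes, all 3 higher, and so not for Prkaca.

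Over the 23 tumors, Crem rose with the markers of T and NK cells, macrophages and B cells. With those of neutrophils it showed no such relation (r = -0.07, rho = 0.12). The correlation of its log2 CPM with the log2 summed CPM of the 8 T and NK cell markers (Cd3d, Cd3e, Cd3g, Cd8a, Cd4, Trac, Nkg7 and Ncr1) was r = 0.824 (permutation p = 1e-05, adjusted p = 0.00099) and rho = 0.867 (permutation p = 1e-05, adjusted p = 0.00099), 1e-05 being the smallest p that 100000 permutations can give. Without the 2 tumors farthest from the median of the marker sum, r was 0.791 (n = 21). Within the routes r was 0.889 for IP (n = 8) and 0.863 for IT (n = 15). With the 7 macrophage markers r was 0.686 (permutation p = 0.00028, adjusted p = 0.00772) and rho 0.835 (permutation p = 2e-05, adjusted p = 0.00099), with r of 0.643 without the 2 farthest tumors, 0.895 in IP and 0.695 in IT. The tumor with the most T and NK cell markers, NCTD_IT replicate 20 at 157 CPM, also had the most Crem, at 91.5 CPM. The B cell markers, between 0 and 2.4 CPM in sum and so near the floor, gave r = 0.667 and rho = 0.622, with r of 0.539 without the 2 farthest tumors. Marker sums and Crem come from the same libraries and share their depth and composition. The permutations shuffled all 23 tumors without regard to group, so a difference between groups that both share also enters the p.

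**Figure D5:**
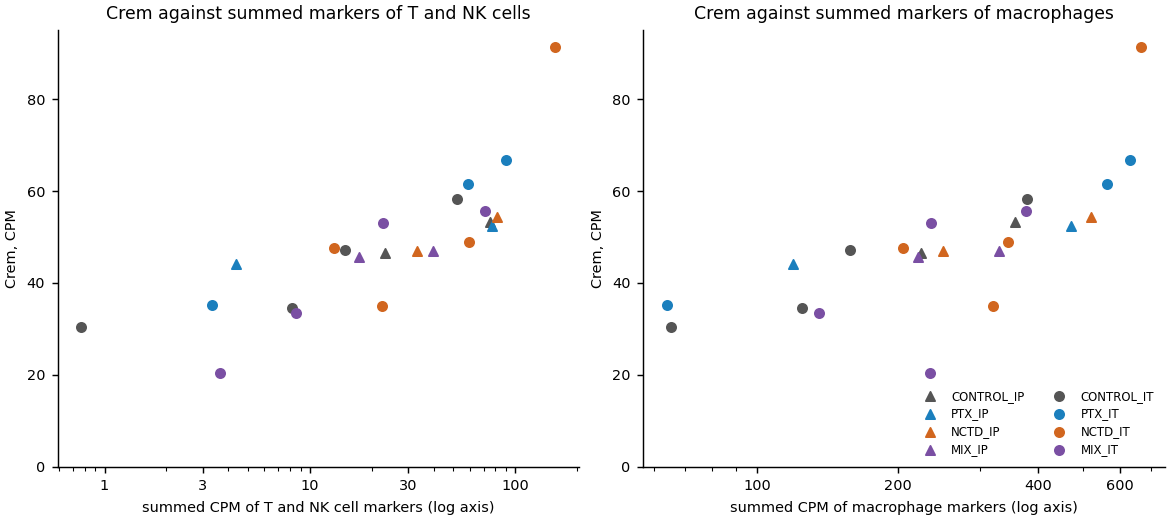
Crem in CPM against the summed CPM (log axis) of T and NK cell markers and of macrophage markers, with a point for each of 23 tumors, colored by treatment, with triangles for IP and circles for IT. Crem rises with both sums (rho 0.867 and 0.835), and the groups are mixed along the trend.

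In all 99 relations were computed, of 9 genes with 11 lists of markers, and 9 passed at an adjusted p below 0.05 by both r and rho. Pde4a followed the macrophage sum (r = 0.669, rho = 0.687, adjusted permutation p = 0.00825 and 0.0155) and the T and NK cell sum (r = 0.631, rho = 0.658, adjusted permutation p = 0.0151 and 0.0182). Its r with macrophage markers was 0.759 without the 2 farthest tumors, 0.844 in IP and 0.714 in IT, and with T and NK cell markers it was 0.702, 0.848 and 0.678. Pde3b followed the same sums, with r of 0.574 and 0.648 and rho of 0.622 and 0.661 (adjusted permutation p between 0.0113 and 0.0378). Without the 2 farthest tumors its r was 0.670 and 0.719, and within the routes it was 0.919 and 0.930 in IP and 0.476 and 0.553 in IT. Pde10a followed neutrophil markers (r = 0.664, rho = 0.640, adjusted permutation p = 0.00772 and 0.0201), with r of 0.602 without the 2 farthest tumors, 0.561 in IP and 0.654 in IT. Pde8a followed endothelial markers (r = 0.674, rho = 0.600, adjusted permutation p = 0.00772 and 0.0276), with r of 0.557 without the 2 farthest tumors. For Pde8a, r was 0.864 for IT (n = 15) and -0.258 for IP (n = 8), so that the relation did not hold within the IP tumors. Pde8a and the endothelial sum were both higher in each NCTD_IT tumor than in each CONTROL_IT tumor, as were Pde10a and the neutrophil sum. These permutations, too, ignored the groups, and the part of such shared shifts in the relations was not tested. Pde4b, Pde4d, Pde7a and Adora2b passed with no list by both measures.

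The genes whose log2 CPM was most like that of each gene, by Spearman's rho over the 23 tumors among 13394 genes, differed between the members of the family. Crem was most like Phf11b (0.944) and Exoc3l4 (0.935), and Pde4a like Nfe2l1 (0.887) and Sema4d (0.856). Pde8a was most like Nus1 (0.885) and Agap1 (0.872), Pde10a like Cdk11b (0.835) and Gm43201 (0.823), Pde3b like Traf3ip3 (0.819) and Dcaf5 (0.817), and Pde7a like Tmc8 (0.801) and C2cd5 (0.792). Lower values were found for Pde4d, with 6030400A10Rik (0.756) and Cul7 (0.727), for Adora2b, with 3110070M22Rik (0.717) and Ubox5 (0.689), and for Pde4b, with Zfp68 (0.715) and Gm12571 (0.656). Among the members themselves, rho was 0.569 between Pde4a and Crem and 0.560 between Pde7a and Pde8a, and -0.04 between Pde8a and Crem. These values are given as a description, as the genes were picked as the highest of many.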

How the data were processed

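RNA of 23 tumors was measured. Per the labels and the study's methods, the authors prepared 3′ mRNA libraries (Collibri), checked reads with FastQC, trimmed them with Trimmomatic, aligned them to GRCm39 with STAR 2.7.11b (tools as in the submitters' processing notes) and deposited raw counts of reads per gene. The strand setting, the handling of multimapping reads and any use of UMIs were not given in the sources used here, so overlapping genes and near-identical copies may share reads. Groups came from the labels.

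The main test was the robust quasi-likelihood test of edgeR 4.0.16 under R 4.3.3, after TMM scaling and filterByExpr (min.count 10, min.total.count 15), with the 4 groups of a route in one model, or all 23 tumors for comparisons of routes. Tests were two-sided, with Benjamini-Hochberg adjustment over all genes and a threshold of 0.05. DESeq2 1.42.0, the study's tool, was an alternative, as were its size factors, no filter, other sets of tumors, Xist as a covariate, a fit that was not robust, and leaving out each tumor. Correlations used log2(CPM + 0.5), with 100000 permutations of the tumors without regard to group and the seed 20250804. The steps were tested on simulated data. Pairs of tumors of a group differed by more than sampling noise (chi-square per degree of freedom at least 8.09). Figures used matplotlib.

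The 10 genes, the lists and the comparisons were chosen with earlier results of these data known. The text names the 10 genes, pathway genes with an adjusted p below 0.05 or else the 1 higher and 1 lower gene of smallest p, the 2 genes most like each of the 10, Xist and markers.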

Additional observations from a re-analysis of the deposited data

Results flagged for a closer look

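Pde10a in MIX_IT replicate 21 was at 25.48 CPM, far from the other tumors of its group at 5.83 to 8.98 CPM, with a gap of 0.84 of the group's range. It was the only such tumor in 27 sets of 4 values examined, each set being 1 gene in 1 group. Chance alone flags about 1 set in 20, and the sets share tumors, so that they are not independent.

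The log2 fold change of Pde8a with PTX pointed in opposite ways by route, -0.77 in PTX_IP against CONTROL_IP and 0.38 in PTX_IT against CONTROL_IT, with both PTX_IP tumors below and all 3 PTX_IT tumors above every control of their route. The difference between the routes had an adjusted p of 0.9116 by edgeR, and route, vehicle and batch cannot be told apart.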

How the results depend on the processing

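No paired analysis was possible because the labels give each tumor a replicate number of its own, so that no number is shared between groups. The count of genes called was 0 in 84 of 87 results under other settings and in all 153 that left out a tumor. The exceptions were in NCTD_IT against CONTROL_IT, where the count was 2 of 9 with DESeq2 (10.6% of all genes), 1 of 10 without a filter on low counts (4.43%) and 3 of 7 with edgeR on the 2 groups compared (8.98%). Of 72 log2 fold changes under other settings, 64 kept their direction and their side of the threshold, 6 passed it and 2 changed sign, both with Xist as a covariate: Pde8a in NCTD_IT (-0.0204) and Pde4a in the departure of MIX_IT (0.298). All 103 that left out a tumor kept their direction and side. In NCTD_IT without 1 tumor, Pde4a ran from 0.72 to 0.92, Pde8a from 0.56 to 0.77 and Pde10a from 1.04 to 1.39, and over all settings the adjusted p of Pde10a ran from 0.02204 to 0.8719. For Pde4d in NCTD_IP, leaving out a tumor gave 0.54 to 1.24. The Xist covariate separates NCTD_IT from CONTROL_IT completely, and the cause of these shifts was not tested. Mean levels moved by less than 1 SD in all 144 results with another scaling. Leaving out 1 tumor cannot move the mean of its group by 1 SD. The 207 results of that kind, all within 1 SD, could therefore not have come out otherwise. Depth limits Adora2a, Adora2b and Pde3b, and groups of 2 limit every IP comparison.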
